A study of Mus musculus with 15 samples.

Results

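The transcription factors described here are those known for setting or holding the identity of microglia and other macrophages: Sall1, Sall3, Mef2a, Mef2c, Spi1, Irf8, Runx1, Maf and Bhlhe41. They were taken by gene symbol, 9 of the 38924 genes listed, and each symbol matched 1 Ensembl identifier. All 9 passed the filter on low counts, as did 14967 genes in all. Brain myeloid cells positive for CD11b were parted by FACS into cells with high (CD45hi) and low (CD45lo) levels of the leukocyte surface protein CD45, and poly(A) RNA was sequenced. All mice were wild type C57BL/6J males killed at 12 months of age. They were kept on chow (CD) or given a Western diet (WD) from 2 months of age. The 15 libraries comprised 4 of CD CD45hi, 4 of CD CD45lo, 3 of WD CD45hi and 4 of WD CD45lo cells. The study set out to describe how the cells of each sort and each diet differ. The CD45hi sort is a mixed gate rather than a cell type, and p-values measure the spread between libraries, which the study describes as given for each animal. Its methods describe the division of CD11b+CD45+ cells into both sorts by CD45 level, but which libraries share a mouse is not given in the labels. The main fit takes the libraries as independent.

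Microglia are the resident macrophages of the brain. PU.1, the protein of Spi1, is the Ets-family master regulator of the myeloid lineage, and it binds DNA together with IRF8 and RUNX1, which are shared by many blood-derived cells. SALL1 is a zinc finger repressor that among adult macrophages is largely limited to microglia, SALL3 is its close relative, and MEF2A and MEF2C are MADS-box factors active in microglial enhancers. MAF (c-Maf) is a bZIP factor of resident macrophages, and BHLHE41 is a bHLH repressor that binds E-boxes.

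Total expected counts were 11951412 to 17912272 per library, and a factor was covered by 443.0 (Sall3) to 20593 (Mef2a) expected counts in a library. In a principal component analysis of all genes tested, CD CD45hi replicate 4 and WD CD45hi replicate 1 stood apart, at -93 and 134.7 on the second component (13.2% of the variance), whereas the other 13 libraries lay between -21.6 and 4.5. Calls and signs of the factors that change without this pair are given with and without it. The summed level of 10 microglial markers, all of them detected in each group, was 8915 to 11046 cpm (counts scaled to library size) in CD45hi and 18291 to 23365 cpm in CD45lo libraries. Markers of border-associated macrophages (7 genes) summed to 830.0 to 2877 cpm in CD45hi and 68.5 to 253 cpm in CD45lo libraries. Those of classical monocytes (6 genes found) summed to 475 to 953 cpm against 13 to 81.2 cpm, those of patrolling monocytes (4) to 139 to 532 against 1.89 to 7.47 cpm, and those of neutrophils (11) to 1452 to 3947 against 610.0 to 960.1 cpm. Such a sum rests most on the markers with the most RNA. Taken singly, the 11 neutrophil markers had a median log2 fold change between the sorts of 3.56 on CD and 3.40 on WD. Dendritic cell markers (5) summed to 122 to 259 against 16.2 to 30.8 cpm, T and NK cell markers (8) to 10.6 to 140.4 against 0.0742 to 0.659 cpm, and B cell markers (5) to 238 to 493 against 269.9 to 383 cpm. Cd3e and Cd3g were at 0 in every CD45lo and every WD CD45hi library. Markers of neurons, astrocytes, oligodendrocytes and vessel cells summed to at most 34.0, 241, 224 and 84.1 cpm in any library. The microglial, macrophage, monocyte, neutrophil, dendritic cell and T and NK cell sums thus did not overlap between the sorts. Vessel cell sums did not either, at 41.3 cpm or more in CD45hi and 41.2 cpm or less in CD45lo libraries. The B cell, neuron, astrocyte and oligodendrocyte sums overlapped. The part of any of these cells in the differences below was not tested. In sorted bulk RNA, fewer cells of a type and less of its RNA per cell cannot be told apart.

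Sall1, and less firmly Sall3, Mef2a and Mef2c, were lower in cpm in CD45hi than in CD45lo cells. The cpm of the remaining 5 factors passed neither test between the sorts. Sall1 was the lone factor past the 1.5-fold test (edgeR glmTreat, FDR under 0.05), in CD-fed mice, at 0.434 times its CD45lo level (log2 fold change -1.20, SE 0.14, adjusted p = 0.00247). None of the 9 passed that test in WD-fed mice, where 2 had an unadjusted p under 0.05 and where DESeq2 and limma-voom called 0 as well. Over all genes, 2681 of the 14967 tested had an unadjusted p under 0.05 by that test on WD. Of all genes tested, 0.588% were called lower in CD45hi cells of CD-fed mice by this test, and 1.17% in WD-fed mice. The median log2 fold change of the 9 was -0.35 on CD and -0.41 on WD, beside medians of 0.04 and 0.00 over all genes.

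Asking for any change rather than 1.5-fold (edgeR glmQLFTest, FDR under 0.05), Sall1 and Sall3 were called lower in CD-fed mice, and Sall1, Sall3, Mef2a and Mef2c in WD-fed mice. That is 2 of 9 against 2.08% of all genes on CD, and 4 of 9 against 2.89% on WD. No factor was called higher. Counted by library, every CD45hi library lay below every CD45lo library for 3 of 9 factors on CD (Sall1, Sall3 and Bhlhe41), beside 8.26% of all genes. The same held for 4 of 9 on WD (Sall1, Sall3, Mef2a and Mef2c), beside 13.4% of all genes. The smaller number of WD CD45hi libraries makes separation easier there.

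**Figure D1:**
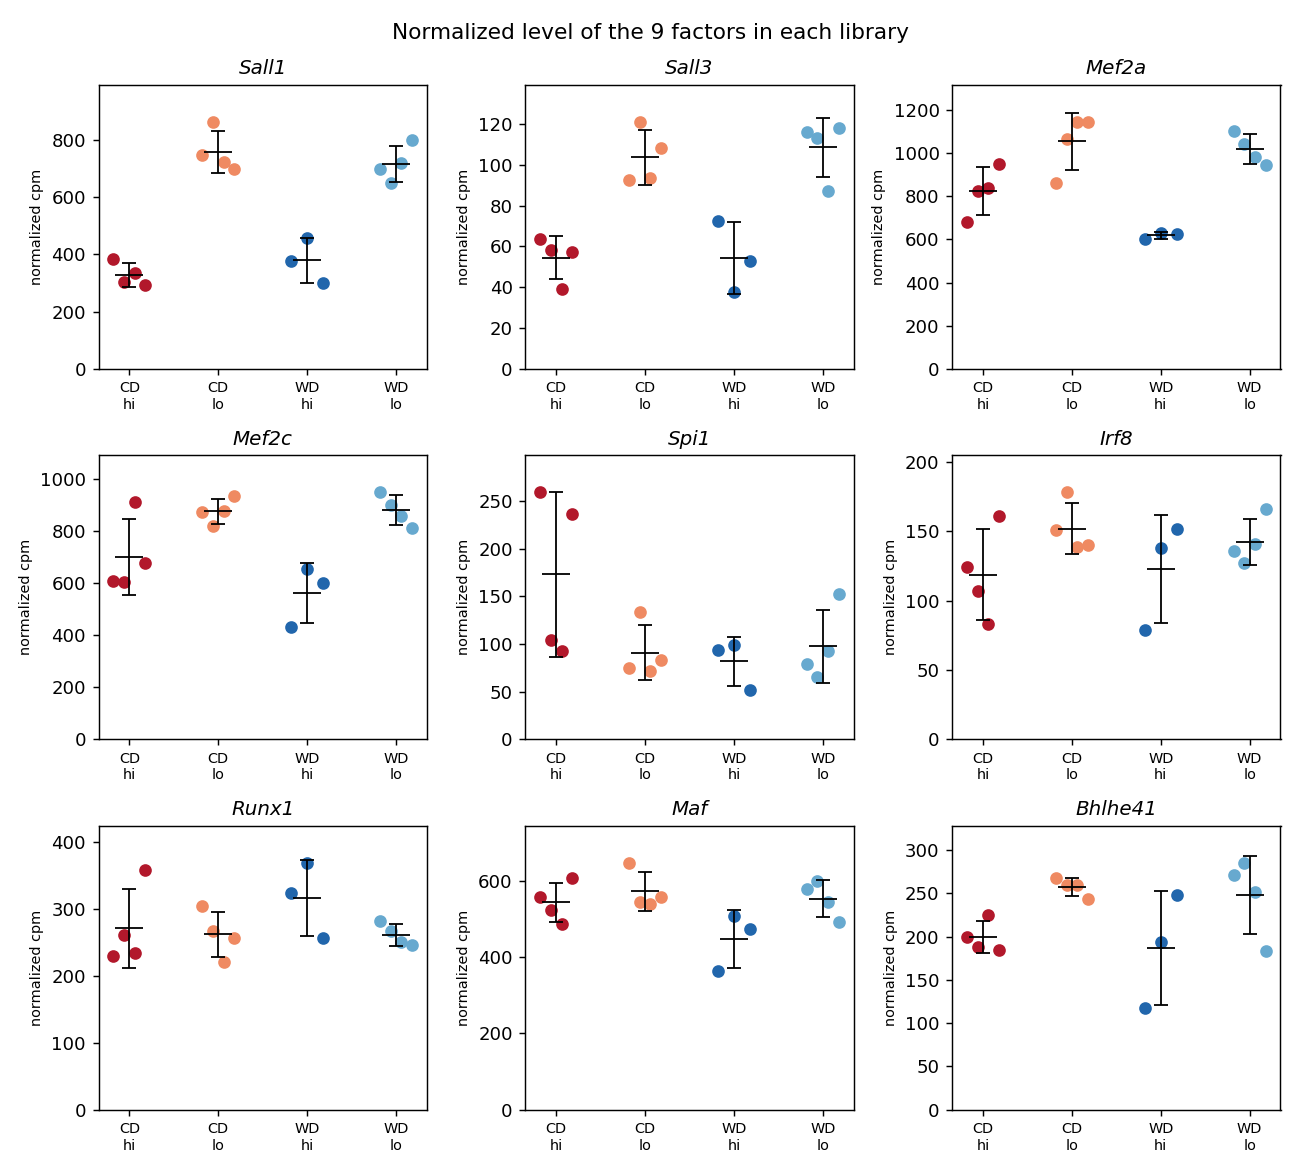
Normalized level (cpm, linear axes from 0) of each factor in each library, by diet (CD, WD) and CD45 level (hi, lo). Points are libraries, horizontal bars the mean and vertical bars the SD. Sall1 lies between 293 and 457 cpm in CD45hi and between 648 and 862 cpm in CD45lo libraries, whereas the groups overlap for Spi1, Irf8, Runx1 and Maf.

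Sall1 (ENSMUSG00000031665) lies on the minus strand at chr8:89027235-89044162 (mm10) and is listed with 1 transcript. Its promoter window is shown because Sall1 showed the clearest difference, and those of Mef2a and Mef2c because they too were called lower in WD-fed mice. They come from the RefSeq promoter table of GRCm38.p6, from 250 bases before to 50 after the start, at chr8:89044113-89044412 (minus), chr7:67372809-67373108 (minus) and chr13:83503784-83504083 (plus). The table held windows for 6 of the 9 factors, with 3 each for Sall1 and Mef2c, of which the one at the outermost start is shown. Capitals mark matches, on either strand, to the core bound by PU.1 (GAGGAA), to a MEF2 site (CTA, any 4 bases, TAG), to an E-box (CACGTG) and to a Runx site (TGTGGT).
Sall1: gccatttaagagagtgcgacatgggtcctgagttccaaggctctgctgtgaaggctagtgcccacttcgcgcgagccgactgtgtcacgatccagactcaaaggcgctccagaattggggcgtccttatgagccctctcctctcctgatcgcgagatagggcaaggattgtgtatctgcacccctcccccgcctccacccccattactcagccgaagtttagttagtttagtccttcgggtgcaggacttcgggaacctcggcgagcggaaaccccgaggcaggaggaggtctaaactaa
Mef2a: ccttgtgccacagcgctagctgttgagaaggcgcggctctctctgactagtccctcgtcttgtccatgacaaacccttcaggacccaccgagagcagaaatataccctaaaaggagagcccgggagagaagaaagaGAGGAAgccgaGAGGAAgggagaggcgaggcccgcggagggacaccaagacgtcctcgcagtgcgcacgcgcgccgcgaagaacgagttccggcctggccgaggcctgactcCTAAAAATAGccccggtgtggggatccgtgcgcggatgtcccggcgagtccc
Mef2c: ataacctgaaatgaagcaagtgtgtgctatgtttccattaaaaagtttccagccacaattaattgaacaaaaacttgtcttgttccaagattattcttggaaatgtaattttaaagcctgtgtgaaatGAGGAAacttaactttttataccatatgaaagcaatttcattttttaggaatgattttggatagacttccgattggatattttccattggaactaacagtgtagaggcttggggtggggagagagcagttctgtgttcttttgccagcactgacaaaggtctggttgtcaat

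The Sall1 window shown held none of these letters, the Mef2a window held the PU.1 core at 2 places and the MEF2 site at 1, and the Mef2c window held the PU.1 core at 1 place. Among 32851 windows of that length in the table, 28.3% held the PU.1 core, 3.69% the MEF2 site, 7.15% the E-box and 16.8% the Runx site. A match describes the sequence and does not show that a factor binds it.

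Sall1 was at 385, 302, 335 and 293 cpm in CD CD45hi replicates 1 to 4. In CD CD45lo cells it was at 746, 862, 721 and 699 cpm. The WD CD45hi libraries held 378, 457 and 299.9 cpm, and the WD CD45lo libraries 698, 648, 719 and 799.6 cpm. No CD45hi library reached the lowest CD45lo library on either diet. In WD-fed mice the level in CD45hi cells was 0.528 times that in CD45lo cells (log2 fold change -0.92, SE 0.16), which passed the any-change test (adjusted p = 0.000839) and missed the 1.5-fold test (adjusted p = 0.0832). Without WD CD45hi replicate 2, the highest of its group, the 1.5-fold test was passed (log2 fold change -1.08, adjusted p = 0.0228). The contrast did not differ detectably between the diets (interaction 0.28, SE 0.21, adjusted p = 0.704).

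Sall3 (ENSMUSG00000024565) is likewise listed with 1 transcript. CD CD45hi libraries held 63.4, 58.2, 39.0 and 57.2 cpm and CD CD45lo libraries 92.6, 121, 93.5 and 108 cpm. In WD-fed mice the CD45hi libraries held 72.6, 37.4 and 52.6 cpm and the CD45lo libraries 116, 113, 87.2 and 118 cpm. The sorts again did not overlap on either diet. The log2 fold change was -0.93 (SE 0.23) on CD and -1.0 (SE 0.25) on WD, with adjusted p = 0.0172 and 0.0175 by the any-change test and 0.226 and 0.159 by the 1.5-fold test. Without the pair of libraries that stood apart, or without WD CD45hi replicate 1 alone, Sall3 passed the 1.5-fold test on WD (log2 fold change -1.27 in each case, adjusted p = 0.0335 and 0.0444).

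Mef2a (ENSMUSG00000030557, chr7:67231163-67372858, minus strand) was at 681, 827, 837 and 951 cpm in CD CD45hi and at 863, 1068, 1143 and 1145 cpm in CD CD45lo libraries, so that the sorts overlapped on CD. On WD they did not, with 600.1, 632 and 625 cpm in CD45hi and 1104, 1042, 983 and 945 cpm in CD45lo cells. The log2 fold change was -0.36 (SE 0.12) on CD and -0.72 (SE 0.13) on WD, where the any-change test gave adjusted p = 0.00190 and the 1.5-fold test 0.299. On CD the any-change test gave adjusted p = 0.0873.

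Mef2c (ENSMUSG00000005583, chr13:83504034-83667080, plus strand) followed a like order of groups. CD CD45hi libraries held 608, 603, 913 and 677 cpm and CD CD45lo libraries 874, 818, 875 and 936 cpm, with replicate 3 of CD CD45hi inside the CD45lo range. WD CD45hi libraries held 431, 654 and 601 cpm, all below the 948, 900.1, 859 and 813 cpm of the WD CD45lo libraries. The log2 fold change was -0.32 (SE 0.15) on CD and -0.65 (SE 0.16) on WD, with adjusted p = 0.232 and 0.0164 by the any-change test. For neither MEF2 gene did the interaction pass (-0.36, SE 0.18, adjusted p = 0.514 for Mef2a and -0.32, SE 0.22, adjusted p = 0.669 for Mef2c), so a larger difference on WD than on CD was not shown.

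Spi1 (ENSMUSG00000002111, chr2:91082390-91115756, plus strand) had the widest relative spread of the 9 in CD CD45hi, CD CD45lo and WD CD45lo cells. CD CD45hi libraries held 259, 104, 93.1 and 236 cpm, which fall into a high and a low pair. CD CD45lo libraries held 75.2, 134, 71.2 and 83.6 cpm, WD CD45hi libraries 94.2, 98.8 and 52.0 cpm, and WD CD45lo libraries 79.4, 65.7, 93.0 and 152 cpm. Its SD was 50.2% of the mean in CD CD45hi cells and 31.6% to 38.9% in the other groups. The log2 fold change between the sorts was 0.93 (SE 0.36, adjusted p = 0.427 by the 1.5-fold test) on CD and -0.26 (SE 0.39, adjusted p = 0.942) on WD.

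Irf8 (ENSMUSG00000041515, chr8:120736358-120756694, plus strand) was at 124, 107, 83.2 and 161 cpm in CD CD45hi and 151, 178, 139 and 139.9 cpm in CD CD45lo libraries. It was at 78.9, 138 and 152 cpm in WD CD45hi and 136, 127, 141 and 166 cpm in WD CD45lo libraries. The lowest value in each CD45hi group lay under every CD45lo library, and the highest lay among them. Its log2 fold change was -0.35 (SE 0.22) on CD and -0.21 (SE 0.24) on WD. The latter was 0.03 without WD CD45hi replicate 1.

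Runx1 (ENSMUSG00000022952, chr16:92601466-92826149, minus strand), needed for definitive blood formation, was at 230.0, 262, 235 and 358 cpm in CD CD45hi and 304, 267, 221 and 257 cpm in CD CD45lo libraries. On WD it was at 324, 369 and 257 cpm in CD45hi and 282, 267, 250.3 and 247 cpm in CD45lo libraries. The ranges overlapped on both diets. Its log2 fold change was 0.05 (SE 0.17) on CD and 0.28 (SE 0.18) on WD, and it was of opposite sign (-0.38 and -0.29) on the TPM scale, on which the median of all genes was -0.43 and -0.52.

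Maf (ENSMUSG00000055435, chr8:115682942-115707794, minus strand) was at 558, 523, 487 and 607 cpm in CD CD45hi and 647, 545, 539 and 559 cpm in CD CD45lo libraries. WD CD45hi libraries held 363, 509 and 474 cpm and WD CD45lo libraries 579, 600.3, 544 and 492 cpm. The ranges overlapped on both diets, with log2 fold changes of -0.07 (SE 0.13) on CD and -0.30 (SE 0.14, adjusted p = 0.198 by the any-change test) on WD.

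Bhlhe41 (ENSMUSG00000030256, chr6:145858243-145865558, minus strand) was at 200, 188, 225 and 184 cpm in CD CD45hi, all below the 268, 259, 259 and 243 cpm of CD CD45lo libraries. WD CD45hi libraries spread from 117 through 194 to 248 cpm and overlapped the WD CD45lo libraries at 271, 285, 252 and 183 cpm. The log2 fold change was -0.37 (SE 0.20, adjusted p = 0.324 by the any-change test) on CD and -0.41 (SE 0.21, adjusted p = 0.257) on WD. The lowest library, WD CD45hi replicate 1, was among those that stood apart, and without it the WD value was -0.16.

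Some of the factors overlap other genes. Mef2a overlaps Lysmd4 on the other strand (up to 253.0 expected counts in a library), Irf8 lies within the readthrough gene Gm20388 (up to 446.7), and Runx1 and Maf overlap the antisense genes Gm26626 (up to 210.3) and Gm15655 (up to 935.3). Whether counting used the strand is not given in the sources used here, and expected counts were fractional, as where RSEM divides reads between genes, in 9 libraries for Runx1 and in 15 for Maf, and in 0 for Mef2a and Irf8.

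**Figure D2:**
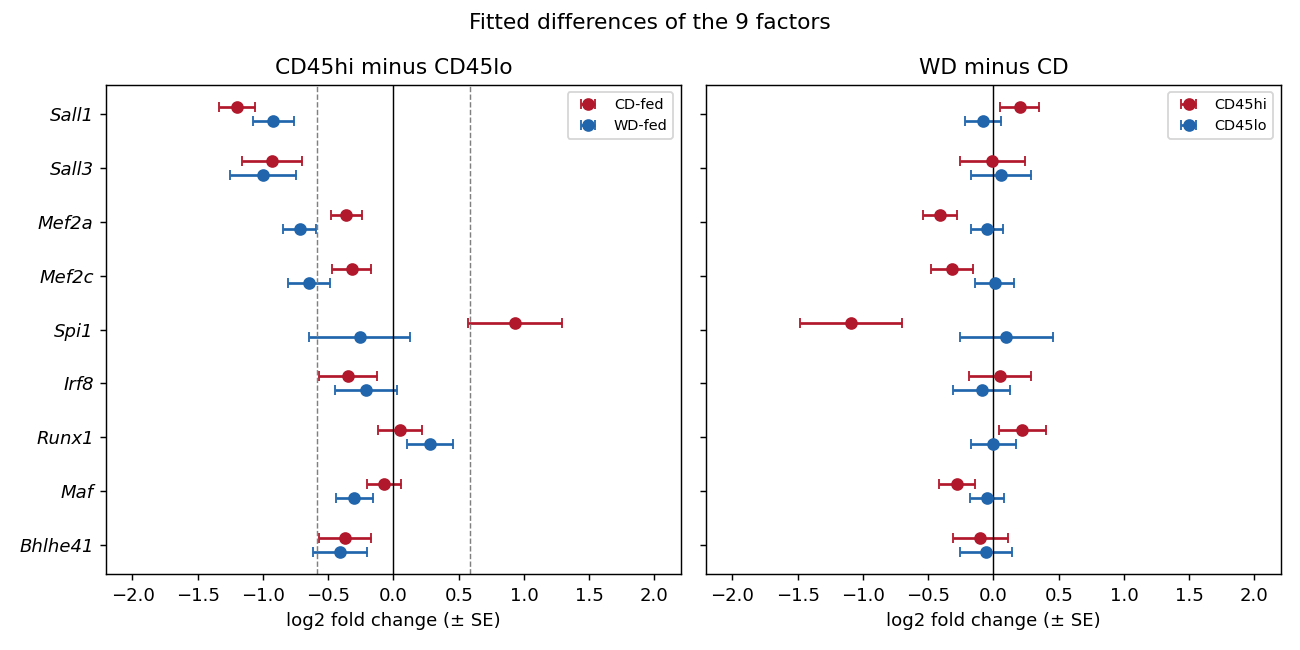
Log2 fold change (± SE, edgeR) of each factor between CD45hi and CD45lo cells on each diet (left) and between WD and CD in each sort (right). Dashed lines on the left mark 1.5-fold. Sall1 and Sall3 lie from -0.92 to -1.20 on both diets, and the diet contrasts in CD45lo cells lie from -0.09 to 0.10.

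Diet changed none of the 9 factors past the test in either sort. In CD45lo cells the log2 fold changes between WD and CD ran from -0.09 (Irf8) to 0.10 (Spi1), no factor had an unadjusted p under 0.05, and the groups overlapped for all 9. Over all genes 0% were called in CD45lo cells by edgeR, 123 genes had an unadjusted p under 0.05, and DESeq2 called 4. In CD45hi cells 0 of 9 were called, beside 0.254% of all genes. There 2 of 9 had an unadjusted p under 0.05, as did 2629 of the 14967 genes tested. DESeq2 and limma-voom called 0 of the 9 too, while over all genes they called 1004 and 27 to edgeR's 38. Without the pair of CD45hi libraries that stood apart, edgeR called 283 genes and 0 of the 9.

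With all libraries kept, the factors with an unadjusted p under 0.05 in CD45hi cells were Mef2a and Spi1. Mef2a was lower on WD (log2 fold change -0.41, SE 0.13, adjusted p = 0.140). Its 3 WD libraries at 600.1 to 632 cpm all lay below the 4 CD libraries at 681 to 951 cpm, whereas the groups overlapped for the other 8 factors. The share of all genes that separate in this way between the diets is not given here, so this separation is no result about Mef2a by itself. Spi1 was at 0.471 times its CD level (log2 fold change -1.09, SE 0.39, adjusted p = 0.175), with the highest WD library (98.8 cpm) above the lowest CD library (93.1 cpm). Sall1 and Sall3 differed by 0.20 (SE 0.15) and -0.01 (SE 0.25). For Irf8 the log2 fold change was 0.05 with all libraries and 0.46 (SE 0.20, adjusted p = 0.206) without the pair that stood apart. Without that pair the unadjusted p (edgeR glmQLFTest) was 0.0366 for Irf8, 0.0495 for Spi1 and 0.0502 for Mef2a. It was under 0.05 for 3106 of the 14734 genes tested without that pair. The interaction of diet and CD45 level was called for 0 of 9 factors, 1 of which (Spi1, -1.18, SE 0.53, adjusted p = 0.463) had an unadjusted p under 0.05. It was called for 0.00668% of all genes, and 1514 of the 14967 genes tested had an unadjusted p under 0.05. DESeq2 and limma-voom called 0 of the 9. Without the pair that stood apart, Irf8 (interaction 0.56, SE 0.26, adjusted p = 0.330) rather than Spi1 had an unadjusted p under 0.05. So did 2171 of the 14734 genes tested without it.

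To compare the factors with each other, levels per transcript length (TPM) were used. In CD45lo cells of CD-fed mice Mef2a had the highest level (631 ± 86.7 TPM, SD, n = 4), above Mef2c (281 ± 18.4) and Sall1 (281 ± 18.5), which did not differ beyond their spread. Maf (208 ± 16.7), Spi1 (132 ± 29.1) and Irf8 (108 ± 9.77) followed, with Spi1 and Irf8 overlapping. Bhlhe41 (82.1 ± 3.19) and Runx1 (73.2 ± 10.2) overlapped as well, and Sall3 was lowest at 29.2 ± 3.40 TPM. The order of means was the same in CD45lo cells of WD-fed mice, from Mef2a (583 ± 104) to Sall3 (30.6 ± 4.34).

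In CD45hi cells Sall1 ranked lower. By its mean it stood below 4 other factors on both diets, at 89.1 ± 13 TPM on CD (n = 4) and 96.5 ± 17.4 on WD (n = 3). On WD its range of 78.7 to 113 TPM overlapped those of Spi1 (57.9 to 159), Maf (92.5 to 111) and Mef2c (103 to 148). On CD every Sall1 value lay below every Maf value (136 ± 11.6), whereas in CD45lo cells every Sall1 value lay above them. Mef2a stayed highest (356 ± 98.3 on CD and 258 ± 25.6 on WD) and Sall3 lowest (11.2 ± 2.3 and 10.5 ± 3.56). Spi1 came second on CD, at 205 ± 91.2 TPM, in a range that overlapped both neighbours, Mef2a and Mef2c. TPM values are shares of each library's transcripts without TMM normalization, so they are compared here within a group.

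**Figure D3:**
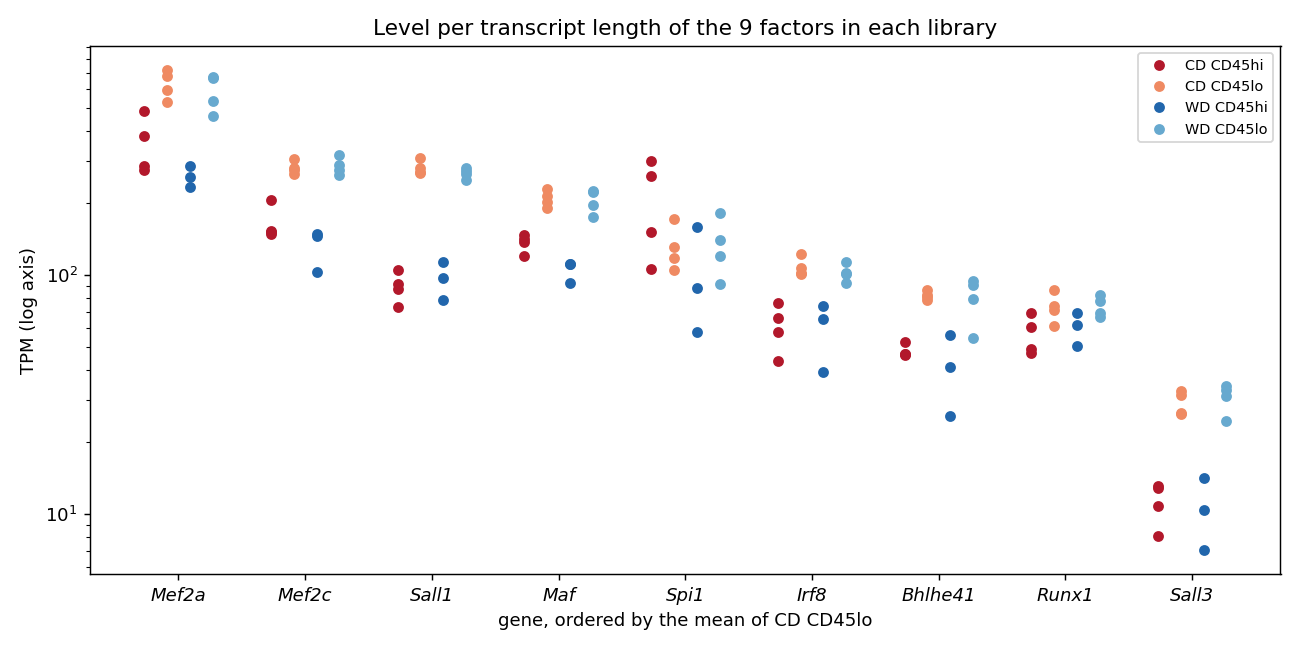
Level per transcript length (TPM, log axis) of each factor in each library, coloured by group and ordered by the mean in CD CD45lo cells. Mef2a is the highest factor and Sall3 the lowest in every group, and Sall1 lies near Mef2c in CD45lo but under it in CD45hi libraries.

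Because the CD45hi libraries held less microglial marker RNA, the factors were also expressed per unit of it. The unit was the geometric mean of P2ry12, P2ry13, Tmem119, Siglech, Gpr34, Olfml3, Fcrls and Sparc, which was 601 ± 55.3 cpm (SD, n = 4) in CD CD45hi, 1442 ± 86.1 (n = 4) in CD CD45lo, 566 ± 8.21 (n = 3) in WD CD45hi and 1366 ± 120.0 (n = 4) in WD CD45lo cells. On this scale Sall1 and Sall3 were not called and the other 7 factors were called higher in CD45hi cells (edgeR glmQLFTest, mean of both diets). This is a different quantity from cpm: on it 58.0% of all genes were called higher, and all genes had a median of 1.24 (log2), against which the 7 of 9 should be read.

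Per 100 cpm of marker RNA, Sall1 was at 55.2 ± 9.37 cpm in CD CD45hi and 52.6 ± 4.66 in CD CD45lo cells, and at 66.8 ± 13.8 in WD CD45hi and 53.0 ± 9.64 in WD CD45lo cells. Its libraries overlapped between the sorts on both diets, and the log2 fold change was 0.20 (SE 0.12, adjusted p = 0.166). Sall3 was at 9.22 ± 2.42 and 7.19 ± 0.647 on CD and at 9.55 ± 2.99 and 8.02 ± 1.58 on WD in CD45hi and CD45lo cells, and differed by 0.31 (SE 0.19, adjusted p = 0.171). With P2ry12 alone as the unit both were called higher (0.56 and 0.67). So were 10086 of the 14967 genes tested, and the median of all genes was 1.595, above both. With all the markers as the unit, the log2 fold changes of the other factors were 0.73 (SE 0.09) for Mef2a, 0.77 (SE 0.10) for Mef2c, 0.88 (SE 0.14) for Bhlhe41, 0.98 (SE 0.18) for Irf8, 1.08 (SE 0.11) for Maf, 1.43 (SE 0.13) for Runx1 and 1.59 (SE 0.28) for Spi1. Those of Runx1 and Spi1 lay above the median of all genes on this scale, and those of the other 7 below it.

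**Figure D4:**
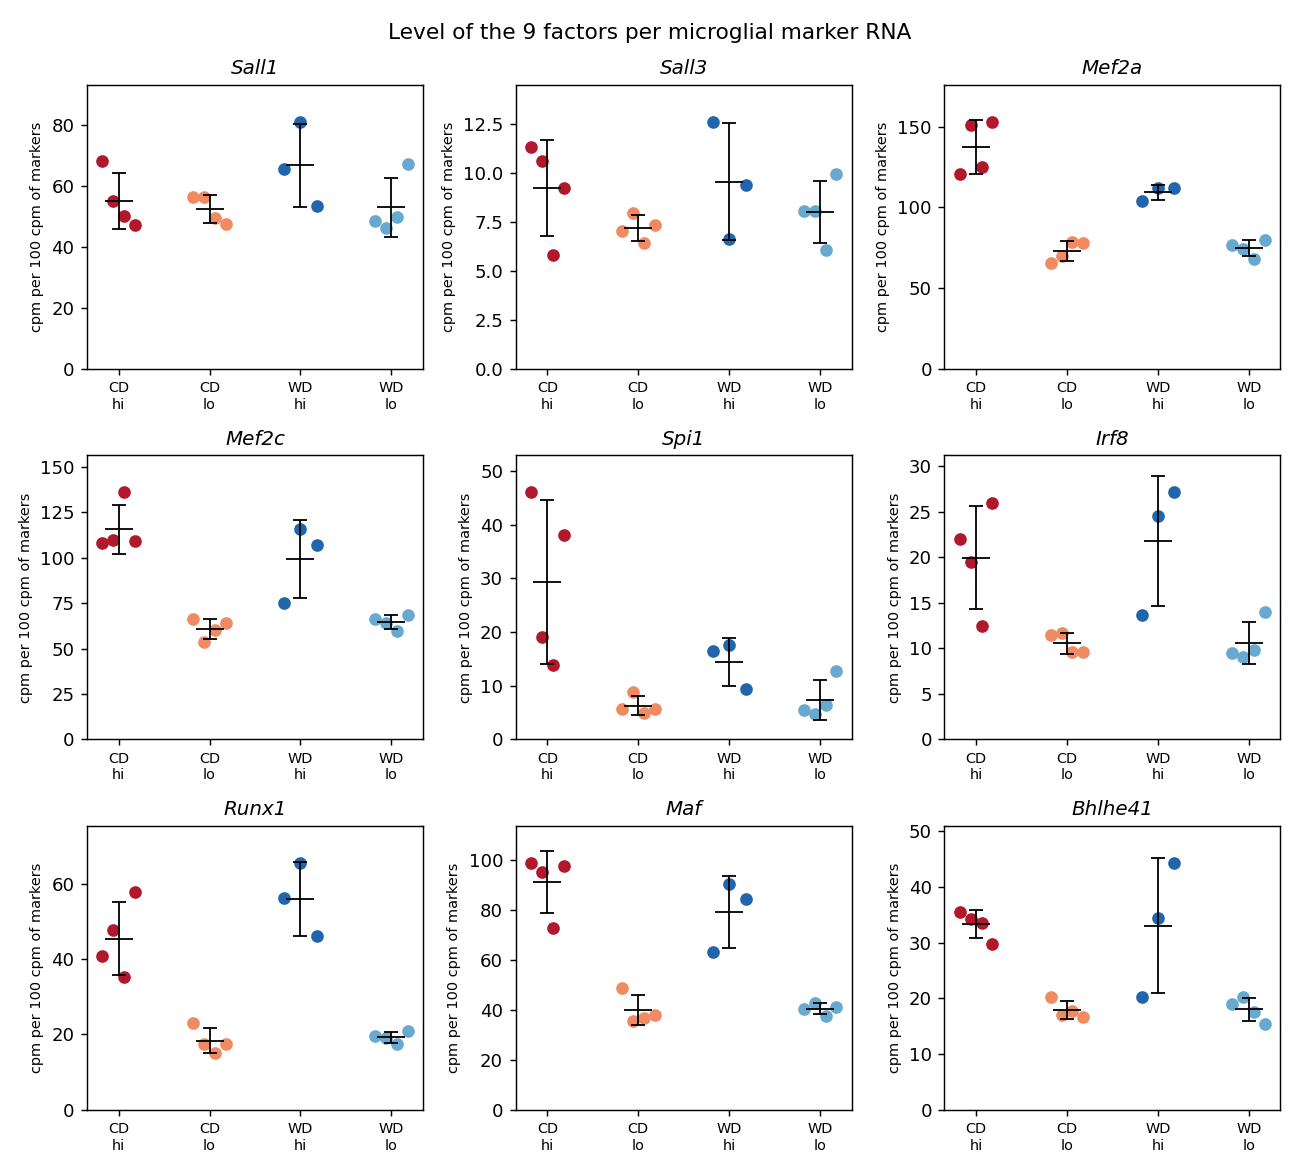
Level of each factor per 100 cpm of microglial marker RNA (linear axes from 0) in each library, by diet and CD45 level. Points are libraries, horizontal bars the mean and vertical bars the SD. CD45hi and CD45lo libraries overlap for Sall1 and Sall3 on both diets, while Runx1 lies at 35.2 to 65.5 in CD45hi and 15.2 to 23.0 in CD45lo libraries.

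RSEM also lists a mean transcript length for each gene, weighted by the abundance of its transcripts, which shifts where cells use other transcripts of a gene. Sall1 and Sall3 are listed with 1 transcript each and could not shift. None of the other 7 factors was called between CD45hi and CD45lo cells (limma, mean of both diets), beside 0.476% of the 9445 genes tested. Of those genes 1137 had an unadjusted p under 0.05, and so did 1 of the 7 factors. That was Maf, whose mean length was 5649 ± 186 bases in CD CD45hi, 5368 ± 133 in CD CD45lo, 5709 ± 355 in WD CD45hi and 5326 ± 118 in WD CD45lo cells (log2 difference 0.0859, SE 0.0272, adjusted p = 0.221). Without WD CD45hi replicate 1 it was called (0.112, adjusted p = 0.0359). It is listed with 2 transcripts. Spi1 was shorter on average in CD45hi cells (1314 ± 180.5 and 1295 ± 329 bases on CD and WD, against 1455 ± 87.5 and 1525 ± 103), with a log2 difference of -0.211 (SE 0.105, adjusted p = 0.455).

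Among relatives from the same DNA-binding families, the genes called were mostly higher in CD45hi cells. Of 19 tested, 5 were called higher in CD45hi cells on each diet by the 1.5-fold test, beside 3.39% of all genes on CD and 4.01% on WD. They were Runx2, Runx3, Bhlhe40, Irf7 and Spib, on both diets. The median log2 fold change of the 19 was 0.38 on CD and 0.49 on WD.

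Runx2 and Runx3, known from bone and lymphocyte development, were at 42.9 ± 19.3 and 18.9 ± 7.67 cpm in CD CD45hi and at 2.41 ± 1.03 and 0.367 ± 0.432 cpm in CD CD45lo cells. On WD they were at 34.3 ± 8.38 and 25.6 ± 16 cpm in CD45hi and at 3.92 ± 1.67 and 0.167 ± 0.164 cpm in CD45lo cells. Runx2 thus had log2 fold changes of 4.15 (SE 0.52, adjusted p = 0.000106) on CD and 3.12 (SE 0.51, adjusted p = 0.00173) on WD. For Runx3 they were 5.64 (SE 1.02, adjusted p = 0.00296) and 7.20 (SE 1.14, adjusted p = 0.000769). The cpm of Runx1 itself passed neither test between the sorts.

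Bhlhe40, the sole close relative of Bhlhe41, was at 70.2 ± 53.6 cpm in CD CD45hi and 1.98 ± 0.771 in CD CD45lo cells, and at 81.5 ± 37.8 in WD CD45hi and 2.72 ± 2.45 in WD CD45lo cells. Its log2 fold change was 5.15 (SE 0.80, adjusted p = 0.000760) on CD and 4.90 (SE 0.81, adjusted p = 0.00124) on WD. The log2 fold changes of Bhlhe41 were -0.37 and -0.41 and passed neither test on cpm.

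Among the interferon regulatory factors, Irf7, the inducer of type I interferon genes, rose from 2.37 ± 0.555 cpm in CD CD45lo to 14.5 ± 4.61 in CD CD45hi cells (log2 fold change 2.61, SE 0.54, adjusted p = 0.0133). On WD it rose from 4.24 ± 1.13 to 35.2 ± 25.3 cpm (3.05, SE 0.56, adjusted p = 0.00489). Irf1, Irf2, Irf3, Irf4, Irf5 and Irf9 did not pass the 1.5-fold test, with log2 fold changes from -0.70 (Irf3) to 1.56 (Irf1) on CD and from -0.50 (Irf3) to 0.58 (Irf9) on WD. Irf1 was at 79.0 ± 46.0 cpm in CD CD45hi and 25.5 ± 18.7 to 26.8 ± 3.79 cpm in the other groups.

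The Ets factor Spib, a relative of Spi1 known from B cells and plasmacytoid dendritic cells, was at 10.5 ± 15.3 cpm in CD CD45hi and 8.92 ± 8.26 in WD CD45hi cells. It was at 0 in 1 CD CD45hi library and at up to 33.3 cpm in another, and no CD45lo library held more than 0.164 cpm of it (adjusted p = 0.0187 on CD and 0.0188 on WD). Spic, known from red pulp macrophages, was at 9.23 ± 2.54 and 19.5 ± 15.9 cpm in CD45hi and 4.23 ± 0.520 and 5.20 ± 1.12 cpm in CD45lo cells of CD- and WD-fed mice and did not pass the test (adjusted p = 0.499 and 0.110).

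Relatives of Maf, Mef2a and Sall1 described here did not pass the 1.5-fold test. The small Maf genes Maff, Mafg and Mafk differed by 0.37, -0.35 and 0.68 on CD and by 3.41, 0.01 and 0.39 on WD. Mef2d differed by 0.26 and -0.20. Sall2 was at 10.5 ± 8.76 and 11.8 ± 15.9 cpm in CD45hi and 24.1 ± 9.81 and 21.7 ± 7.16 cpm in CD45lo cells (log2 fold changes -1.19, SE 0.81, and -0.88, SE 0.88).

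**Figure D5:**
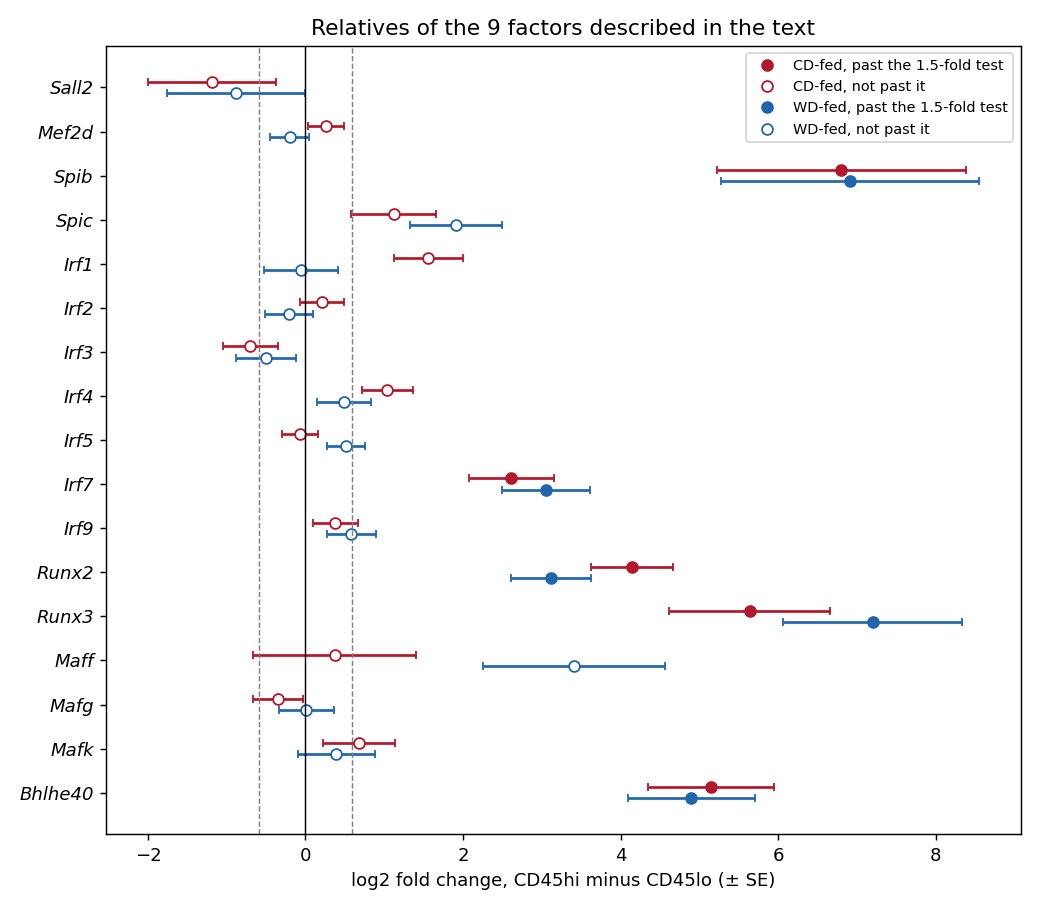
Log2 fold change (± SE, edgeR) between CD45hi and CD45lo cells on each diet for the relatives described in the text, each with at least 10 cpm in some group. Filled points passed the 1.5-fold test and dashed lines mark 1.5-fold. Runx2, Runx3, Bhlhe40, Irf7 and Spib are filled on both diets, and the size for Spib depends on the prior count since CD45lo libraries hold almost none.

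Of 19 partners, cofactors and upstream receptors tested, 1 was called lower on CD, beside 0.588% of all genes, and 1 higher on WD, beside 4.01%, with medians of -0.02 and -0.04. Tgfbr1, a receptor subunit for TGF-beta, on which adult microglia depend, was at 1365 ± 191 cpm in CD CD45hi and 2897 ± 413 in CD CD45lo cells (log2 fold change -1.09, SE 0.13, adjusted p = 0.00444). On WD it was at 1475 ± 215 and 2663 ± 134 cpm (-0.85, SE 0.14, adjusted p = 0.108). Hdac9, a class IIa deacetylase that binds MEF2 proteins, was at 76.7 ± 8.75 cpm in WD CD45hi and 23.5 ± 3.56 in WD CD45lo cells (1.70, SE 0.33, adjusted p = 0.0154). On CD it was at 55.3 ± 19.2 and 22.2 ± 6.73 cpm (1.32, SE 0.31, adjusted p = 0.0791).

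Of 25 other myeloid lineage factors tested, 5 were called higher in CD45hi cells on CD, beside 3.39% of all genes, and 7 on WD, beside 4.01%, with 0 lower on either diet. Their median log2 fold change was 0.96 on CD and 0.48 on WD. Nr4a1, needed for patrolling monocytes, was at 176 ± 84.0 and 193 ± 30 cpm in CD45hi and at 9.76 ± 3.56 and 7.93 ± 1.02 cpm in CD45lo cells of CD- and WD-fed mice (log2 fold changes 4.17 and 4.60, adjusted p = 8.49e-07 and 6.05e-07). Pparg, known from alveolar macrophages and fat cells, was at 4.57 ± 1.37 and 13.7 ± 7.53 cpm against 0.0307 ± 0.0615 and 0.312 ± 0.416 cpm. Cebpb, which takes part in emergency myelopoiesis, was at 21.8 ± 11.1 and 21.4 ± 2.31 cpm against 3.73 ± 0.739 and 4.70 ± 0.860 cpm. Nfe2, Ets2, Bcl6 and Id2 made up the rest of the called genes, with Ets2 and Bcl6 called on both diets and Nfe2 and Id2 on WD.

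Of 12 lymphocyte lineage factors, 7 identifiers were tested. None was called on CD, and Ikzf3 (Aiolos) was called higher on WD, beside 4.01% of all genes, at 50.6 ± 47.2 cpm in CD45hi cells and 0 in all 4 CD45lo libraries, which is at least 223-fold higher against 3 counts per library. The list's median log2 fold change was 1.43 on CD and 2.54 on WD, or 1.70 on WD with 2 genes set to their bound against that floor.

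Genes whose centred log2 cpm came closest to that of each factor over the 15 libraries, among 8252 genes with a mean of at least 10 cpm, were Pdia6, Selplg and Tgfbr1 for Sall1, with root-mean-square differences of 0.17, 0.2 and 0.213. Those for Sall3 were Phyhd1, Lag3 and Lhfpl2 (0.215 to 0.253). Those for Mef2a were Slc23a2, Abca9 and Nckap1l (0.126 to 0.175), and those for Mef2c were Hadha, Abca1 and Serinc3 (0.158 to 0.179). Runx1 lay nearest to Cd84, Dock8 and Sun2 (0.148 to 0.164). Maf lay nearest to Tab2, Itgam and Jak1 (0.126 to 0.146). Bhlhe41 lay nearest to Picalm, Spata13 and Hsp90b1 (0.16 to 0.194), and Irf8 to Unc93b1, Scd2 and Rtn3 (0.207 to 0.216). Spi1 had the most distant neighbours, Gltscr1, Fermt3 and Coro7 (0.248 to 0.338).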

How the data were processed

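Expected counts, TPM values and transcript lengths per gene were deposited for each of the 15 libraries. Per the study's methods, the authors trimmed reads with NGS QC Toolkit and ran RSEM 1.2.12 with Bowtie2 against mm10 to obtain these expected counts, TPM values (transcript shares scaled to a fixed sum) and lengths. The submitters' processing notes also name bcl2fastq 2.18.0.12. The annotation release and strand setting are not given in the sources used here. The study's methods name alternative Illumina sequencing platforms, and which libraries ran on which is not given either. A difference between platforms was not tested. Of 38924 identifiers, 37607 were found in the reference annotation (GENCODE M21), from which coordinates were taken; its transcripts are not those of the authors in every gene, since the length listed for Runx1 exceeds its longest transcript there.

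Expected counts were rounded, and genes with at least 1 cpm in 2 libraries were kept. One model over all 15 libraries was fitted with edgeR 4.0.16 (R 4.3.3, TMM, quasi-likelihood in its earlier, legacy form): glmTreat at 1.5-fold for CD45 level, and glmQLFTest for diet, the interaction and the level per marker RNA. The newer edgeR 4 form called 821 and 931 genes between the sorts on CD and WD, to 595 and 775. For diet in CD45hi cells it called 252, to 38. Lengths were tested with limma 3.58.1 on the log2 scale. Benjamini-Hochberg adjustment covered all genes tested, at 0.05. Log2 fold changes are CD45hi minus CD45lo or WD minus CD. Alternatives included DESeq2 1.42.0, limma-voom, log2(TPM + 1), other filters and scalings, a replicate block and leaving out libraries. The scripts were tested on simulated data.

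The members, lists and tests were chosen with earlier results of these data known. All 9 factors, every relative with at least 10 cpm in some group, up to 3 highest and 3 lowest called genes of each other list, and the 3 genes nearest to each factor were named, except items that are not reported here. Promoter windows came from RefSeq (GRCm38.p6), for 6 of 9 factors. Depth was 11951412 to 17912272 expected counts per library. Same-numbered libraries of the 2 sorts were not taken as pairs.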

Additional observations from a re-analysis of the deposited data

Results flagged for a closer look

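One library of Sall3 lay far from the rest of its group. In WD CD45lo cells replicate 3 held 87.2 cpm, whereas the other 3 libraries held 113 to 118 cpm. The gap was large for the range of the group by Dixon's criterion. It was 1 of 27 groups of 4 libraries examined in this way (9 factors in 3 groups), and chance gives about 1 in 20. The WD CD45hi group, with 3 libraries, was not examined. Without that library the log2 fold change of Sall3 between the sorts on WD was -1.09, to -1.0 with it.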

How the results depend on the processing

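The 1 factor called on CD (1.5-fold test) was 1 under every omission of a library and 2 when any change was asked for. On WD the count of 0 became 4 when any change was asked for, 1 with limma on log2(TPM + 1), 1 without the pair of CD45hi libraries that stood apart, and 0 to 1 when single libraries were left out (1 without WD CD45hi replicate 1 or 2). Diet and interaction counts stayed at 0 in every alternative run, and the marker-scaled count was 7 in each omission. The length count was 0 to 1 over omissions. In the fit with a replicate block 1 factor was called on CD and 0 on WD with either numbering. Correlations of same-numbered deviations were -0.022 to 0.069. Such values cannot show whether same-numbered libraries came from the same mice. Over all genes the block on file numbers called 413 and 354 genes on CD and WD and that on sample titles 501 and 604, to 595 and 775 without it. The number of genes called ranged over all alternatives from 396 to 1202 on CD, 354 to 1363 on WD, 0 to 1004 (38 as reported) for diet in CD45hi cells, 0 to 4 for diet in CD45lo cells, 0 to 188 for the interaction and 14 to 103 for length. The split of higher to lower calls was 507 to 88 on CD and 600 to 175 on WD as reported, 253 to 143 and 246 to 320 on the TPM scale, 404 to 138 on CD with limma-voom, 321 to 33 on WD with the block on file numbers, and 891 to 311 on CD when any change was asked for. The all-gene median on CD and WD (log2), 0.04 and 0.00 as reported, was -0.43 and -0.52 with TPM, -0.221 and -0.265 with limma-voom, -0.215 and -0.249 with the block on file numbers, and -0.107 and -0.128 with that on sample titles.

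Differences that changed sign were uncalled. Runx1 between the sorts was -0.38 on CD and -0.29 on WD with TPM, and -0.11 on CD without the pair that stood apart. Without that pair Irf8 between the sorts on WD was 0.03, Bhlhe41 was 0.11 for diet in CD45hi cells, and its interaction was 0.17. For diet in CD45hi cells Sall3 was 0.01 with DESeq2, with DESeq2 size factors and with 1 cpm required in 4 libraries, and 0.03 with the replicate block on sample titles, and Irf8 was -0.05 with TPM. For diet in CD45lo cells Mef2c was -0.01 without the filter, and Runx1 was 0.02 with TPM, 0.000168 with limma-voom and 0.00445 with the replicate block on sample titles. Leaving out single libraries, the ranges that crossed 0 were, between the sorts, -0.39 to 0.03 for Irf8 and -0.42 to 0.04 for Spi1 on WD and -0.11 to 0.13 for Runx1 on CD. For diet in CD45hi cells they were -0.36 to 0.15 (Bhlhe41), -0.13 to 0.29 (Irf8) and -0.28 to 0.20 (Sall3). For diet in CD45lo cells they were -0.13 to 0.06 (Bhlhe41), -0.09 to 0.02 (Maf), -0.03 to 0.04 (Mef2c), -0.08 to 0.07 (Runx1) and -0.20 to 0.34 (Spi1). For the interaction they were -0.30 to 0.21 (Bhlhe41), -0.04 to 0.38 (Irf8) and -0.34 to 0.14 (Sall3), and for length -0.0374 to 0.00388 (Bhlhe41) and -0.0806 to 0.0322 (Mef2a). The cause of these changes was not tested.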
